A study of Mus musculus with 36 samples.

Results

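The 8 genes described here are Hsd3b5, Elovl3, Cyp4a12a, Cyp4a12b, Cyp2d9, Selenbp2, Serpina1e and Serpina4-ps1, grouped under the working name of growth-hormone-dependent hepatocyte enzymes, out of 29546 genes in the table. They were listed by symbol and chosen by their normalized counts, because their RNA was nearly lost in mouse livers after bile duct ligation and after feeding 3,5-diethoxycarbonyl-1,4-dihydrocollidine (DDC). Their values in those livers are therefore a description, given without a test. The name was only partly borne out: Serpina1e encodes a protease inhibitor, Serpina4-ps1 is named as a pseudogene, and the loss was uneven. Cyp2d9 kept 26.8 to 49.1% of its control level over the 4 ligated and DDC groups, Cyp4a12b kept 23.0% in BDL7 (ligation, day 7) and Selenbp2 24.1% there, which is not near loss. Growth hormone itself was not measured.

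In male mice the pituitary releases growth hormone in pulses, and each pulse activates the transcription factor STAT5B in hepatocytes through the growth hormone receptor and the kinase JAK2. This pulsed signal, together with androgens, sustains a set of liver genes that are high in males, many of them enzymes of steroid, fatty acid and drug metabolism. A steadier supply, as in females, sustains another set.

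The livers came from C57BL/6 mice, a common inbred strain. Mice with a ligated bile duct were sampled after 7 days (BDL7) or 28 days (BDL28) and set against sham-operated mice (SHAM). Mice on a diet with 0.1% DDC by weight, which causes cholestasis through bile duct injury, were sampled at the same times (DDC7, DDC28) and set against mice on control diet (CTLD). Mice given cyclosporin A, an immunosuppressant that inhibits bile salt export, at 15 mg/kg by gavage in olive oil (CsA7, CsA28) were set against mice given olive oil (VEHICLE). Each of the 9 groups held 4 libraries, and the labels give the controls no day, so 1 control group served both days of its model. The labels do not give sex or age. All 4 Y-linked genes checked had reads in 36 of 36 libraries, with 268 to 783 reads of Ddx3y, and Xist, the RNA of the inactive X chromosome, had at most 2 reads.

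Libraries held 2081093 to 3770267 reads, counted at the 3' ends of transcripts, and levels are given as normalized counts, the reads scaled for library depth by the authors. All 12 hepatocyte marker genes were tested, and their summed level was 73582 to 95785 normalized counts in the 8 ligated livers, against 96274 to 107345 in SHAM, and 73818 to 92720 in the 8 DDC livers, against 106480 to 133758 in CTLD. Markers of bile duct cells summed to 976 to 3080 in ligated livers, against 305 to 494 in SHAM, and to 1260 to 2379 in DDC livers, against 311 to 418 in CTLD. Macrophage markers summed to 922 to 1968 in ligated livers, against 389 to 509 in SHAM, and to 1001 to 2167 in DDC livers, against 362 to 497 in CTLD. Endothelial markers summed to 768 to 956 in BDL7 and 379 to 633 in BDL28, against 918 to 1018 in SHAM. They summed to 767 to 922 in DDC7 and 606 to 705 in DDC28, against 856 to 969 in CTLD, and overlapped the controls on day 7. Fibroblast markers summed to 1781 to 2770 in BDL7 and 876 to 3180 in BDL28, against 836 to 1016 in SHAM. In DDC livers they summed to 1727 to 3210, against 1101 to 1297 in CTLD. In BDL28 replicate 1 the bile duct and fibroblast markers summed to 2836 and 3180, above the other 3 BDL28 livers at 976 to 1271 and 876 to 1100. The part of such shifts in the results below was not tested, and in whole tissue fewer cells of a type and less RNA per cell cannot be told apart.

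Start-site regions from RefSeq (build GRCm38.p6, not the build of the counts) were at hand for 4 of the 8 genes. The 250 bases upstream of Selenbp2 and Serpina1e are shown beside those of the relative with the most identical bases, because both relatives kept much more of their level in the ligated and DDC livers. Capitals mark bases that differ or have no partner within the aligned stretch. Selenbp2 lies at chr3:94693323-94693572 on the plus strand and Selenbp1 at chr3:94932833-94933082 on the plus strand, with 223 of 250 aligned positions identical. Serpina1e lies at chr12:103956898-103957147 on the minus strand and Serpina1b at chr12:103738190-103738439 on the minus strand, with 194 of 200 aligned positions identical.
Selenbp2: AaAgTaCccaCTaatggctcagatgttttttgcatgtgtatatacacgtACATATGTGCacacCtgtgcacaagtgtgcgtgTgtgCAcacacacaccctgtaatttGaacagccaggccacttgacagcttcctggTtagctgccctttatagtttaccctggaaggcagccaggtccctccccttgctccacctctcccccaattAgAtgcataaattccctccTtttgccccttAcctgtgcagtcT
Selenbp1: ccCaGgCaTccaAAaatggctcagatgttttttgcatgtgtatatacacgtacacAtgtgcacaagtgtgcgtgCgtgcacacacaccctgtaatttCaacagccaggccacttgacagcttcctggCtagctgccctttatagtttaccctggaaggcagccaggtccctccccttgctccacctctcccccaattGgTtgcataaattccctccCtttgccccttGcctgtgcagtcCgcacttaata
Serpina1e: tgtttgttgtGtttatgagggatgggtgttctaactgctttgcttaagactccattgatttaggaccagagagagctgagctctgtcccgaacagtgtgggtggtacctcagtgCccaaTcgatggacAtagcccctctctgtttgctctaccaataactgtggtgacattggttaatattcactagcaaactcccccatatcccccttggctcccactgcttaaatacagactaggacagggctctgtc
Serpina1b: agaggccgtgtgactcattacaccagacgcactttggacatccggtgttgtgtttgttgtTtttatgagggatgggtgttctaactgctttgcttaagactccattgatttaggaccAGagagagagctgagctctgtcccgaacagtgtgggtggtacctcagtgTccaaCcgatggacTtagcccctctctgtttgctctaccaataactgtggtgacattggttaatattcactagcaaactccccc
3 short motifs were searched on both strands of the 4 upstream regions. The STAT5-type palindrome TTCNNNGAA was in none of the 4 and in 7.02% of 32851 such regions. The HNF1-type motif GTTAAT was in Serpina1e, starting 78 bases before the start site, and in 6.43% of all regions. The Serpina1b region shown above holds it too, so it does not distinguish the pair. TATAAA was matched in Cyp2d9 at 28 bases and in Selenbp2 at 103 bases before the start, and on either strand in 12.4% of all regions. Both matches lie on the opposite strand and read TTTATA in the direction of the gene. The Selenbp1 region shown above holds the same TTTATA, so it does not distinguish that pair. These are matches of letters, not shown sites.

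All 8 genes were lower in every ligated liver than in every SHAM liver, and lower in every DDC liver than in every CTLD liver. The same complete separation downward held for 19.2% of 12596 tested genes in BDL7, 18.6% in BDL28, 20.8% in DDC7 and 22.0% in DDC28, and in either direction for 39.1%, 37.3%, 44.0% and 47.1%. Since the genes were picked for it, nothing is read from their count. With genes without reads at their bound, the median log2 change of the 8 group means was -4.38 in BDL7, -5.10 in BDL28, -4.53 in DDC7 and -5.83 in DDC28. The median fitted log2 change was -4.17, -5.33, -4.35 and -5.68 in the same order, beside 0.01, 0.03, 0.04 and 0.04 over all tested genes. All 8 passed the filter on low values, 10 normalized counts in at least 4 libraries.

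**Figure D1:**
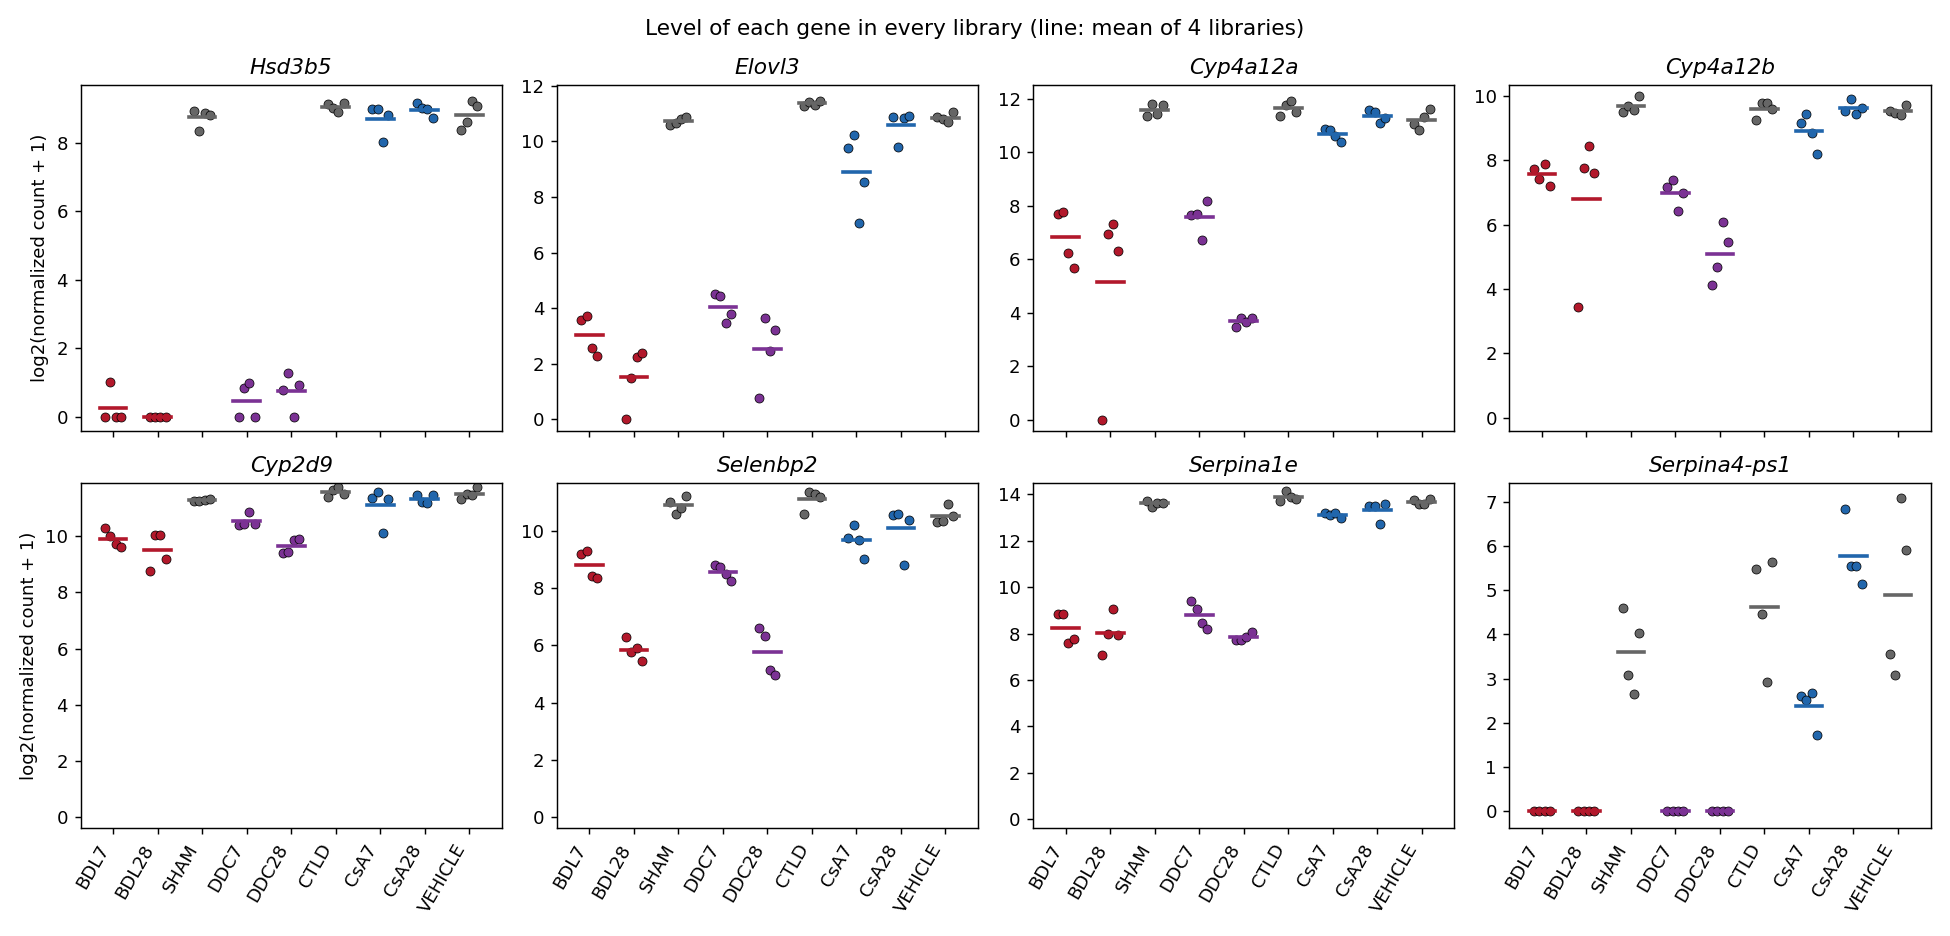
Level of each of the 8 genes as log2(normalized count + 1) in all 36 libraries. Points are libraries and lines are means of 4. Ligated livers are red, DDC livers purple, cyclosporin livers blue and controls grey. Every red and purple point lies below the grey points of its own model, and the blue points mostly overlap the VEHICLE points.

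Hsd3b5 encodes a ketosteroid reductase of the male mouse liver and had few or no reads in all 4 ligated and DDC groups. BDL7 livers had 0, 1.02, 0 and 0 normalized counts, a single read over the group, BDL28 livers had none, and SHAM livers had 487, 325, 462 and 449. DDC7 livers held 1 read in each of 2 libraries and none in the others, DDC28 livers had 0.717, 1.42, 0 and 0.919 normalized counts, and CTLD livers 556, 512, 472 and 565. A library thus held at most 2 reads in any ligated or DDC liver and at least 262 in SHAM and CTLD. With 3 reads over a group as the floor, BDL28 was at least 589-fold lower than SHAM. With reads pooled over the group and scaled by depth, the 1 read of BDL7 against 1434 in SHAM put the level at 0.0516% of SHAM, with a 95% counting interval of 0.00131 to 0.288%. The 2 reads of DDC7 against 1745 in CTLD put it at 0.0747%, with an interval of 0.00904 to 0.270%, and DDC28 averaged 0.145% of CTLD. Such intervals cover counting error only.

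Elovl3 encodes an elongase of very long chain fatty acids and kept under 1% of its control level in all 4 groups. BDL7 livers had 10.9, 12.2, 4.99 and 3.82 normalized counts, BDL28 livers 0, 1.84, 3.71 and 4.29, and SHAM livers 1518, 1596, 1764 and 1889. DDC7 livers had 21.8, 20.8, 9.97 and 12.7, DDC28 livers 0.717, 11.4, 4.52 and 8.27, and CTLD livers 2469, 2718, 2533 and 2802. The group means stood at 0.471% of SHAM in BDL7, 0.145% of SHAM in BDL28, 0.620% of CTLD in DDC7 and 0.237% of CTLD in DDC28. Day 28 was below day 7 on average in both models, but the libraries of the 2 days overlapped. The controls themselves differed, since every CTLD liver exceeded every VEHICLE and SHAM liver.

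Cyp4a12a and Cyp4a12b are near-identical cytochrome P450 genes whose enzymes hydroxylate fatty acids, arachidonic acid among them. Cyp4a12a had 207, 217, 73.8 and 49.6 normalized counts in BDL7, 0, 123, 159 and 78.2 in BDL28, and 2599, 3592, 2753 and 3504 in SHAM. It had 199.7, 204, 105 and 290.4 in DDC7, 10.04, 12.8, 11.8 and 12.9 in DDC28, and 2630.4, 3471, 3859.8 and 2921 in CTLD. The 4 DDC28 livers lay far below the DDC7 livers and close together, whereas the ligated livers spread widely. The means were 4.40% of SHAM in BDL7, 2.89% of SHAM in BDL28, 6.20% of CTLD in DDC7 and 0.368% of CTLD in DDC28.

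Cyp4a12b kept more. It had 212, 172, 236 and 146 normalized counts in BDL7, 9.84, 216, 349 and 193 in BDL28, and 718, 830.3, 752 and 1033 in SHAM, which put BDL7 at 23.0% and BDL28 at 23.0% of SHAM. It had 143, 166, 84.7 and 127 in DDC7, 16.5, 24.9, 66.9 and 43.2 in DDC28, and 610.2, 882, 886 and 765 in CTLD, which put DDC7 at 16.6% and DDC28 at 4.82% of CTLD. BDL28 replicate 1, the liver with the high bile duct and fibroblast marker sums, stood far below the other 3 for both copies. Without it BDL28 averaged 253 ± 84.4 (SD, n = 3) for Cyp4a12b, 30.3% of SHAM, and 120.1 ± 40.4 (SD, n = 3) for Cyp4a12a, 3.86% of SHAM.

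The balance between the copies differed as well. Cyp4a12a took 38.6 ± 16.4% of the reads of the pair in BDL7 and 24.1 ± 16.4% in BDL28, against 78.8 ± 1.69% in SHAM (SD, n = 4 each). It took 59.6 ± 6.86% in DDC7 and 27.4 ± 10.4% in DDC28, against 80.4 ± 1.04% in CTLD. In CsA7 and CsA28 it took 77.1 ± 3.89% and 76.9 ± 2.51%, against 76.0 ± 3.39% in VEHICLE. BDL7 had 2 livers at 49.4 and 55.8% and 2 at 23.8 and 25.4%, and BDL28 replicate 1 had 0 of 10 reads, with an exact 95% binomial interval up to 30.8%. In the last 500 transcript bases the copies share 37.0% of 50-base windows, so some reads cannot be assigned by sequence and both levels and shares carry that uncertainty.

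**Figure D2:**
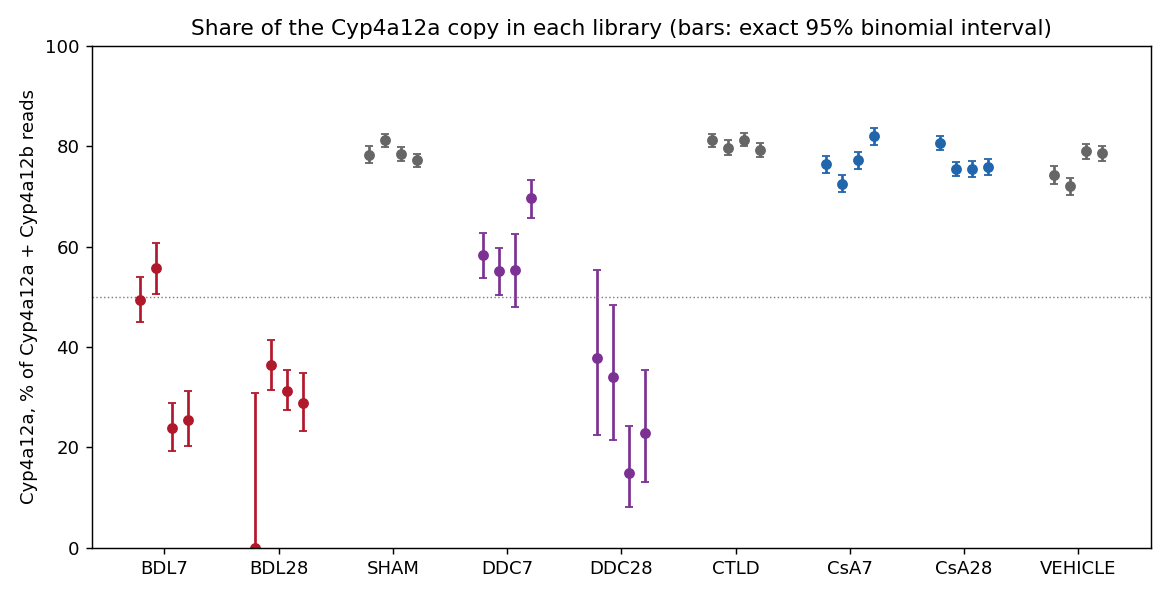
Cyp4a12a reads as a percent of Cyp4a12a and Cyp4a12b reads together, one point per library with its exact 95% binomial interval. The dotted line is an equal share. Control and cyclosporin livers lie between 72.0 and 82.0%, and every ligated and DDC liver lies below 70%.

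Cyp2d9 encodes a steroid hydroxylase, a classical male marker in mouse liver, and kept the most. It had 1243, 1025, 838 and 777 normalized counts in BDL7, 435, 1060.3, 1041 and 588 in BDL28, and 2434, 2459.9, 2482 and 2564 in SHAM. In DDC7 it had 1344, 1382, 1871 and 1389, in DDC28 669.6, 698, 939.6 and 964, and in CTLD 2719, 3165, 3412 and 2895. No ligated or DDC liver reached its controls, yet the means were still 39.1% of SHAM in BDL7, 31.4% of SHAM in BDL28, 49.1% of CTLD in DDC7 and 26.8% of CTLD in DDC28. In the last 500 transcript bases, 23.9% of 50-base windows also occur in other genes, all named ones of the Cyp2d family.

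Selenbp2, a selenium-binding protein gene of the liver, separated the days in both models. It had 579, 633, 347 and 327 normalized counts in BDL7, 76.7, 53.3, 58.5 and 42.9 in BDL28, and 2075, 1541, 1802 and 2416 in SHAM. In DDC7 it had 449, 431, 359.7 and 307, in DDC28 97.5, 79.8, 34.4 and 30.3, and in CTLD 1536, 2632, 2486 and 2335. In both models every day 28 liver lay below every day 7 liver. BDL28 stood at 12.3% of BDL7 and DDC28 at 15.6% of DDC7. Against controls, BDL7 was at 24.1% of SHAM and DDC7 at 17.2% of CTLD, and BDL28 was at 2.95% of SHAM and DDC28 at 2.69% of CTLD. The end of Selenbp2 shares 46.1% of its windows with Selenbp1.

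Serpina1e, one of the mouse genes for alpha-1-antitrypsin, an inhibitor of proteases secreted by hepatocytes, gave the highest counts of the 8 in the control libraries. It had 454, 459.8, 189 and 219 normalized counts in BDL7, 135, 249, 539 and 244 in BDL28, and 13451, 11209.7, 12519 and 12808 in SHAM. In DDC7 it had 685, 527, 347 and 295, in DDC28 213, 209, 233 and 271, and in CTLD 13305, 18097, 15172 and 14343. Ligated livers overlapped between the days, at 2.64% of SHAM in BDL7 and 2.33% in BDL28. Every DDC28 liver lay below every DDC7 liver, at 1.52% of CTLD in DDC28 and 3.04% in DDC7.

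Serpina4-ps1 is a weakly detected locus and had no read in any of the 16 ligated and DDC livers. SHAM livers had 23.4, 7.45, 5.26 and 15.4 normalized counts, and CTLD livers 43.6, 21.05, 6.52 and 49.1. At the floor of 3 reads over a group, the level was at least 19.0-fold lower in BDL7 and 17.6-fold lower in BDL28 than in SHAM, and at least 49.6-fold lower in DDC7 and 49.3-fold lower in DDC28 than in CTLD. Hsd3b5, Elovl3 and Serpina4-ps1 share no 50-base window at their ends with another gene.

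**Figure D3:**
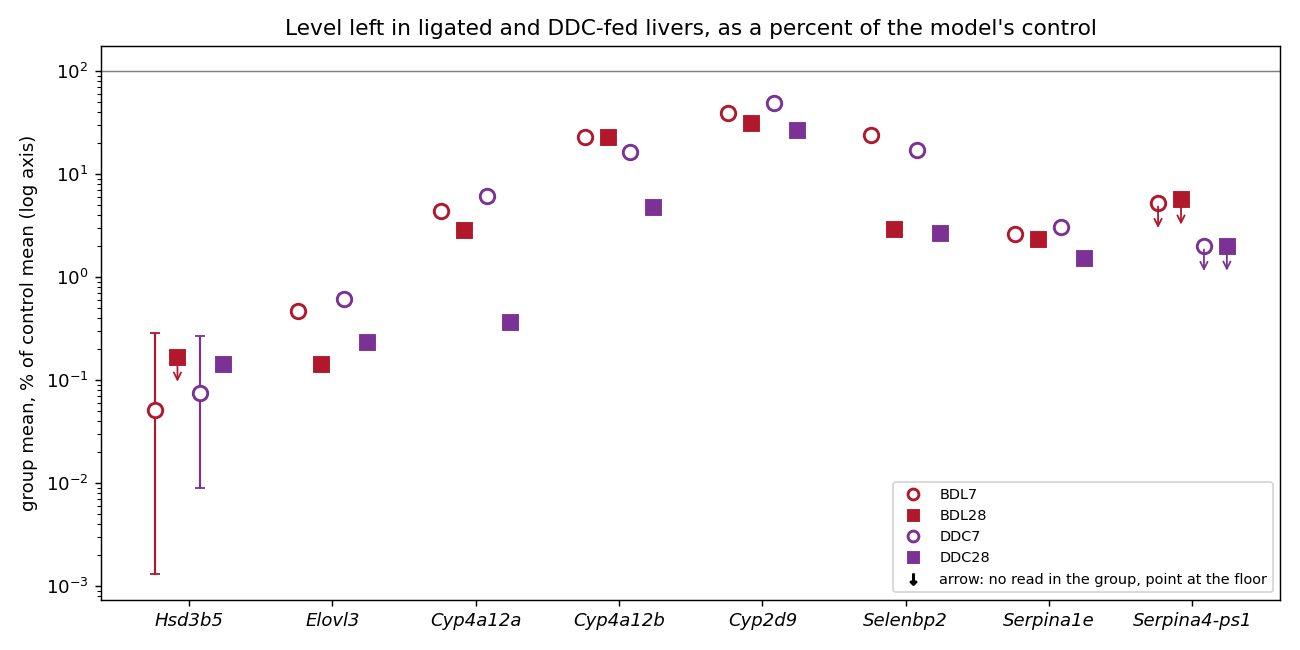
Group mean as a percent of the control mean of the same model, on a log axis. Open circles are day 7 and filled squares day 28, ligation red and DDC purple. Arrows mark groups without a read, drawn at the floor of 3 reads, and the bars on 2 Hsd3b5 points are 95% counting intervals. Cyp2d9 lies highest, between 26.8 and 49.1%, and Hsd3b5 and Elovl3 lie under 1%.

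Between the days, 1 of the 6 genes with reads in both ligated groups separated completely, Selenbp2, which was lower on day 28, beside 12.1% of all 12596 tested genes lower and 23.0% in either direction. In DDC livers 5 of the 7 genes with reads did, all lower on day 28, beside 7.54% of all tested genes lower and 15.0% in either direction: Cyp4a12a at 5.95% of its DDC7 mean, Selenbp2 at 15.6%, Cyp4a12b at 29.1%, Serpina1e at 49.97% and Cyp2d9 at 54.7%. Elovl3 averaged 38.1% with overlapping livers, and Hsd3b5 had 4 reads in DDC28 and 2 in DDC7. The levels of both days were used to pick the genes, so nothing is read from these counts of separated genes. In BDL28 replicate 1, 5 of the 6 genes with reads were at their lowest of the group.

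Ordered by level over the 9 groups, the 5 control and cyclosporin groups came above the 4 ligated and DDC groups for every one of the 8 genes. This split was largely fixed by picking the genes for low levels in the ligated and DDC groups. CTLD was highest for 6 of the 8 genes, SHAM for Cyp4a12b and CsA28 for Serpina4-ps1. CsA7 was the fifth for all 8. The gap below CsA7 had no overlap for Hsd3b5, Elovl3, Cyp4a12a, Serpina1e and Serpina4-ps1, while CsA7 overlapped its lower neighbour for Cyp4a12b, Cyp2d9 and Selenbp2. Among the 5 upper groups, neighbours overlapped in all cases but one, Elovl3 in CTLD and VEHICLE. Among the 4 lower groups, neighbours separated for Cyp4a12b (DDC7 above DDC28), Cyp2d9 (DDC7 above BDL7) and Selenbp2 (DDC7 above DDC28).

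The genes were picked for their levels in ligated and DDC livers and not for those in cyclosporin livers, so tests are given there, although earlier results from all libraries were known. All 8 genes averaged lower in CsA7 than in VEHICLE. Adjusted p-values are from limma with Benjamini-Hochberg adjustment over 12596 genes, and a gene is called below 0.05. The spread of each gene was estimated over all 9 groups together, so ligated and DDC livers enter every SE. Of the 8, 2 were called lower, beside 2.14% of all tested genes called lower and 4.03% in either direction. The livers of 4 of the 8 did not overlap with VEHICLE, beside 5.26% of all tested genes in that direction and 10.3% in either. The median log2 change of the 8 was -0.60, beside 0.00 over all tested genes.

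Elovl3 had 874, 1207, 132 and 366 normalized counts in CsA7 and 1851, 1793, 1648 and 2107 in VEHICLE. Every CsA7 liver lay below every VEHICLE liver, with replicates 3 and 4 lowest. It fell by 1.95 on the log2 scale (SE 0.57, limma, adjusted p = 0.0497), just past the threshold. Without CsA7 replicate 3 the change was -1.34 with adjusted p = 0.213 (limma). Without CsA7 replicate 4 the adjusted p was 0.141, and without any 1 of the 4 VEHICLE livers it was 0.0832 to 0.0981.

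Serpina4-ps1 had 5.06, 4.70, 5.36 and 2.29 normalized counts in CsA7 and 10.8, 7.40, 135 and 59.0 in VEHICLE. The CsA7 livers were tightly grouped below VEHICLE livers that spread widely. It fell by 2.53 on the log2 scale (SE 0.60, limma, adjusted p = 0.0105). Without VEHICLE replicate 3, the highest liver, the change was -1.80 with adjusted p = 0.0786 (limma), and without CsA7 replicate 4 the adjusted p was 0.0542. The group totals were 20 reads in CsA7 and 184 in VEHICLE. None of the ligated and DDC livers had a read of this gene, so they enter the SE above with no spread and lower it. In a limma fit on the compared groups alone the adjusted p was 0.197.

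The other 6 did not pass the test in CsA7. Selenbp2 had 865, 1179, 823 and 520.3 normalized counts in CsA7 and 1271, 1287, 1967 and 1460.3 in VEHICLE, with a log2 change of -0.86 ± 0.36 (SE, limma, adjusted p = 0.193). Serpina1e had 9400.2, 8854, 9407 and 8042 in CsA7 and 14006, 12318, 12311 and 14379 in VEHICLE, with -0.57 ± 0.30 (SE, limma, adjusted p = 0.333). For both, no CsA7 liver reached a VEHICLE liver. In a limma fit on the compared groups alone, Serpina1e passed with adjusted p = 0.00395, and Elovl3 and Serpina4-ps1 did not, with 0.246 and 0.197. Log2 changes were -0.62 ± 0.61 for Cyp4a12b, -0.53 ± 0.87 for Cyp4a12a, -0.42 ± 0.25 for Cyp2d9 and -0.11 ± 0.26 for Hsd3b5 (SE), with overlapping livers. For Hsd3b5 the 95% interval of the change was -0.64 to 0.42.

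In CsA28 none of the 8 was called by limma. Over all genes 0.00794% were called higher, 0.0159% lower and 0.0238% in either direction. None of the 8 had an unadjusted p below 0.05, edgeR called 0, and the livers overlapped with VEHICLE for all 8, where 2.64% of all genes separated downward and 4.49% in either direction. The median log2 change was -0.05. The estimates ran between -0.43 for Selenbp2, with a 95% interval of -1.17 to 0.31, and 0.87 for Serpina4-ps1, with an interval of -0.34 to 2.08.

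The difference between the cyclosporin days was itself tested, without controls for each day. Serpina4-ps1 had 114, 46.2, 45.7 and 34.6 normalized counts in CsA28, all above the CsA7 livers, a log2 difference of 3.40 ± 0.60 (SE, limma, adjusted p = 0.000795). The ligated and DDC livers, without a read of this gene, lower this SE too. Serpina4-ps1 was the one of the 8 called, beside 1.37% of all genes called higher, 1.07% lower and 2.45% in either direction. Elovl3 differed by 1.71 ± 0.57 (SE, limma, adjusted p = 0.111), and without CsA7 replicate 2 its adjusted p was 0.0438. Cyp4a12a and Cyp4a12b also had no overlap between the days, so that 3 of the 8 separated, all higher in CsA28. Over all genes 10% separated in either direction, made up of 5.26% lower in CsA28 and the rest higher. The log2 differences of Cyp4a12a and Cyp4a12b, 0.69 ± 0.87 and 0.71 ± 0.61 (SE), did not pass. In a limma fit on the compared groups alone, Cyp4a12a passed with adjusted p = 0.0273. Its livers had 1344 to 1846 normalized counts in CsA7 and 2153 to 3052 in CsA28. Hepatocyte markers summed to 99517 to 108479 in CsA7, 101680 to 118879 in CsA28 and 111101 to 134429 in VEHICLE, and bile duct markers to 195 to 292, 337 to 522 and 283 to 485 in the same order. Their part in these changes was not tested.

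**Figure D4:**
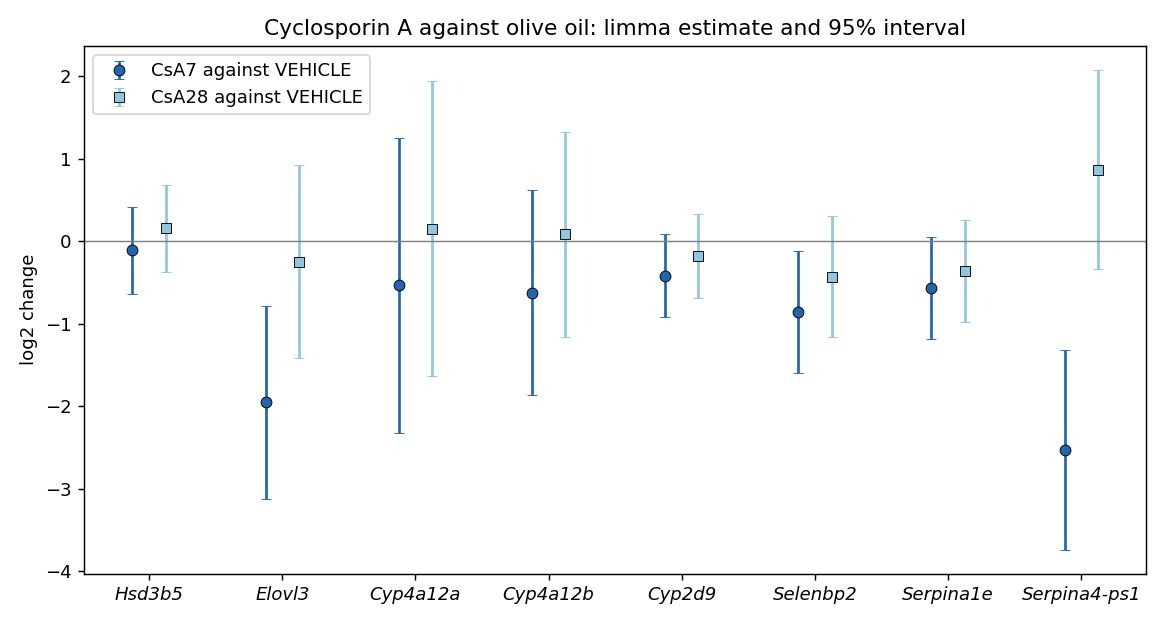
Log2 change against VEHICLE estimated by limma, with 95% intervals, for CsA7 (dark circles) and CsA28 (light squares). The intervals of Elovl3, Selenbp2 and Serpina4-ps1 lie below 0 in CsA7, of which Elovl3 and Serpina4-ps1 passed after adjustment, and all CsA28 intervals include 0.

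The genes of the growth hormone pathway itself changed in part, 13 of 14 being tested. In BDL7 5 fell and none rose, in BDL28 4 fell and 2 rose, in DDC7 5 fell and 2 rose and in DDC28 7 fell and 2 rose. Over all genes 18.5%, 22.7%, 22.1% and 24.7% fell and 20.2%, 24.1%, 24.7% and 27.9% rose in those 4 comparisons. In either direction 38.7%, 46.8%, 46.8% and 52.7% of all genes were called, beside 5, 6, 7 and 9 of 13 here. Falls were more frequent in the list than over all genes and rises less frequent, by few genes in some comparisons. With 13 genes these shares were not tested against the background, and nothing is read from the counts. The list was also chosen with earlier results known, so its direction is not independent evidence. The median log2 change of the list was -0.45, -0.15, -0.73 and -0.57 in the same order. None was called in CsA7 or CsA28 by limma, where 5 and 1 had an unadjusted p below 0.05 and edgeR called 2 and 0.

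The receptor gene Ghr fell in all 4 groups. It averaged 596 ± 9.92 normalized counts in BDL7 and 418 ± 79.2 in BDL28, against 1680.0 ± 88.8 in SHAM (SD, n = 4 each). It averaged 709 ± 78.8 in DDC7 and 515 ± 39.1 in DDC28, against 2188 ± 92.9 in CTLD. The log2 changes were -1.49 in BDL7, -2.02 in BDL28, -1.63 in DDC7 and -2.09 in DDC28, each ± 0.11 (SE, limma, highest adjusted p = 7.64e-13). In CsA7 Ghr averaged 1694 ± 248 and in CsA28 1929 ± 146, against 1832 ± 250.3 in VEHICLE (SD, n = 4 each).

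Downstream of the receptor, Stat5b, the main STAT5 gene of hepatocytes, fell by 0.69 in BDL7, 0.72 in BDL28 and 0.52 in DDC28 on the log2 scale (limma, highest adjusted p = 0.000336), and its change in DDC7 was -0.25 ± 0.12 (SE, limma, adjusted p = 0.0743). Igfals, the liver-made subunit of the circulating IGF-1 complex, fell by 1.40 in BDL7, 2.20 in BDL28, 1.203 in DDC7 and 1.57 in DDC28 (log2, limma, highest adjusted p = 5.60e-06). Igf1 fell by 0.45 in BDL7, 0.98 in DDC7 and 0.84 in DDC28 (log2, limma, highest adjusted p = 0.00784), and its change in BDL28 was -0.15 ± 0.14 (SE, limma, adjusted p = 0.397). Hnf4a, a hepatocyte transcription factor gene, fell by 0.74 in DDC7 and 0.75 in DDC28 (log2, limma, highest adjusted p = 0.000189). It was not called in ligated livers, at -0.30 in BDL7 and -0.02 in BDL28 (log2, each ± 0.15 SE, limma, adjusted p = 0.126 and 0.942).

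Cux2, a repressor gene normally active in female mouse liver, rose in BDL28, DDC7 and DDC28. It averaged 61.6 ± 18.5 normalized counts in BDL28, against 1.19 ± 1.76 in SHAM, and 42.5 ± 9.997 in DDC28, against 1.85 ± 2.47 in CTLD (SD, n = 4 each). The log2 changes were 5.09 ± 0.66 and 4.34 ± 0.66 (SE, limma, adjusted p = 8.64e-08 and 1.23e-06). On day 7 the change was 1.02 ± 0.66 in BDL7, which did not pass, and 2.41 ± 0.66 in DDC7, which did (log2, SE, limma, adjusted p = 0.234 and 0.00303).

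Most of the other listed genes known to be higher in male mouse liver fell as well. Of 10 tested, 7 fell in BDL7, 9 in BDL28, 8 in DDC7 and 9 in DDC28, and none rose, where 18.5%, 22.7%, 22.1% and 24.7% of all genes fell. The list was chosen with earlier results of these data known, so its direction is not independent evidence. Its median log2 changes were -2.44, -3.58, -2.43 and -3.05. Slco1a1, an organic anion transporter gene, averaged 1.19 ± 1.16 normalized counts in BDL28, against 1484 ± 71.2 in SHAM, and 4.14 ± 4.11 in DDC28, against 1708 ± 87.9 in CTLD (SD, n = 4 each). Cyp7b1, an oxysterol hydroxylase of bile acid synthesis, had log2 changes of -4.46 in BDL28 and -3.87 in DDC28 (both lower, limma, highest adjusted p = 9.05e-13). The glucuronosyltransferase gene Ugt2b1 fell by 4.25 in BDL28 and by 3.22 in DDC28 (log2, limma, highest adjusted p = 5.31e-14).

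In CsA7, 2 of the 10 male-biased genes fell, Cyp7b1 by 1.34 (log2, SE 0.27, limma, adjusted p = 0.00308) and the complement gene C6 by 0.64 (log2, SE 0.18, limma, adjusted p = 0.0416), where 2.14% of all genes fell. In CsA28 limma called none of the 10, with 2 at an unadjusted p below 0.05, and edgeR called 0.

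Of 23 listed genes known to be higher in female mouse liver, 16 were high enough to test. In BDL7 7 rose and 1 fell, in BDL28 11 rose and 1 fell, in DDC7 10 rose and 1 fell, and in DDC28 12 rose and 1 fell, leaving 8, 4, 5 and 3 not called in that order, where 20.2%, 24.1%, 24.7% and 27.9% of all genes rose. This list too was chosen with earlier results known. The 1 that fell was Cyp2c40 in each case, named after its values were seen.

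The sulfotransferase genes Sult2a1 and Sult2a2 averaged 98.7 ± 72.1 and 121 ± 87.0 normalized counts in BDL28, against 0 and 0.654 ± 0.758 in SHAM (SD, n = 4 each). Cyp2b9 averaged 137 ± 27.3 in DDC28 and 0 in CTLD, and Trim24, a transcription cofactor gene, 118 ± 18.7 in DDC28 and 25.4 ± 6.63 in CTLD. These 4 changes passed (limma, highest adjusted p = 7.72e-09). In CsA7 1 of the 16 was called, the peroxisomal transporter gene Abcd2, which rose by 1.98 ± 0.48 on the log2 scale (SE, limma, adjusted p = 0.0162), where 1.88% of all genes rose. In CsA28 limma called none, with 2 at an unadjusted p below 0.05, and edgeR called 0.

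Genes with symbols of the same families offer another comparison. The table holds 43 relatives by symbol, of which 25 were tested. Symbols that start with Serpina1 include Serpina12, which is also in the male-biased list, so these lists overlap. Relatives by symbol need not be close relatives. In BDL7 17 fell and 2 rose, in BDL28 19 fell and 2 rose, in DDC7 15 fell and 2 rose, and in DDC28 16 fell and 2 rose, where in the same order 18.5%, 22.7%, 22.1% and 24.7% of all tested genes fell and 20.2%, 24.1%, 24.7% and 27.9% rose. The 3 tested Hsd3b relatives all fell in both day 28 groups, with log2 changes between -1.92 and -1.63 in BDL28 and between -2.92 and -1.36 in DDC28, beside the near absence of Hsd3b5. Hsd3b7, which acts in bile acid synthesis, averaged 339 ± 95.3 normalized counts in BDL28, against 1022 ± 80.2 in SHAM (SD, n = 4 each).

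The other alpha-1-antitrypsin genes kept more than Serpina1e. In BDL28, Serpina1a averaged 3864 ± 648 normalized counts, against 5523 ± 248 in SHAM, Serpina1b 4752 ± 877 against 6304 ± 319, Serpina1c 2474 ± 213 against 7587 ± 176, and Serpina1d 3002 ± 618 against 5436 ± 215 (SD, n = 4 each). In DDC28, Serpina1a averaged 3288 ± 256, against 7357 ± 924 in CTLD, Serpina1b 4137 ± 564 against 7858 ± 896, Serpina1c 2569 ± 298 against 9238 ± 1581, and Serpina1d 2618 ± 451 against 6853 ± 769. All 4 fell, with log2 changes of -1.62 to -0.43 in BDL28 and -1.84 to -0.93 in DDC28 (limma, highest adjusted p = 0.00223). Serpina1e had the highest mean of the 5 genes in SHAM and CTLD and the lowest in BDL28 and DDC28, and its end shares 16.4% of 50-base windows with other genes.

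Selenbp1, whose upstream region is shown with that of Selenbp2, averaged 845 ± 278 normalized counts in BDL28, against 567 ± 25.9 in SHAM, and 691 ± 39.0 in DDC28, against 565 ± 48.4 in CTLD (SD, n = 4 each). It rose in BDL28 by 0.52 on the log2 scale (SE 0.13, limma, adjusted p = 0.00123) and was not called in the other 5 comparisons with controls. Elovl7 rose to 34.8 ± 14.1 in BDL28, against 1.40 ± 1.31 in SHAM, and to 48.5 ± 11.8 in DDC28, against 1.05 ± 1.22 in CTLD (SD, n = 4 each, limma, highest adjusted p = 6.20e-10). Elovl2 and Elovl5, elongases of polyunsaturated fatty acids, fell by 1.32 and 1.58 in BDL28 and by 1.04 and 1.06 in DDC28 (log2, limma, highest adjusted p = 9.06e-07).

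Cyp4a14, another fatty acid hydroxylase, averaged 331 ± 122 normalized counts in DDC28, against 76.1 ± 58.3 in CTLD (SD, n = 4 each), and rose by 2.41 ± 0.78 on the log2 scale (SE, limma, adjusted p = 0.0109). Among Cyp2d genes, Cyp2d40 averaged 18.1 ± 7.76 in BDL28, against 316 ± 22.6 in SHAM (SD, n = 4 each), a log2 change of -4.16 beside -1.77 for Cyp2d9. Cyp2d22 was at 0.11 ± 0.12 in BDL28 (log2, SE, limma, adjusted p = 0.473).

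**Figure D5:**
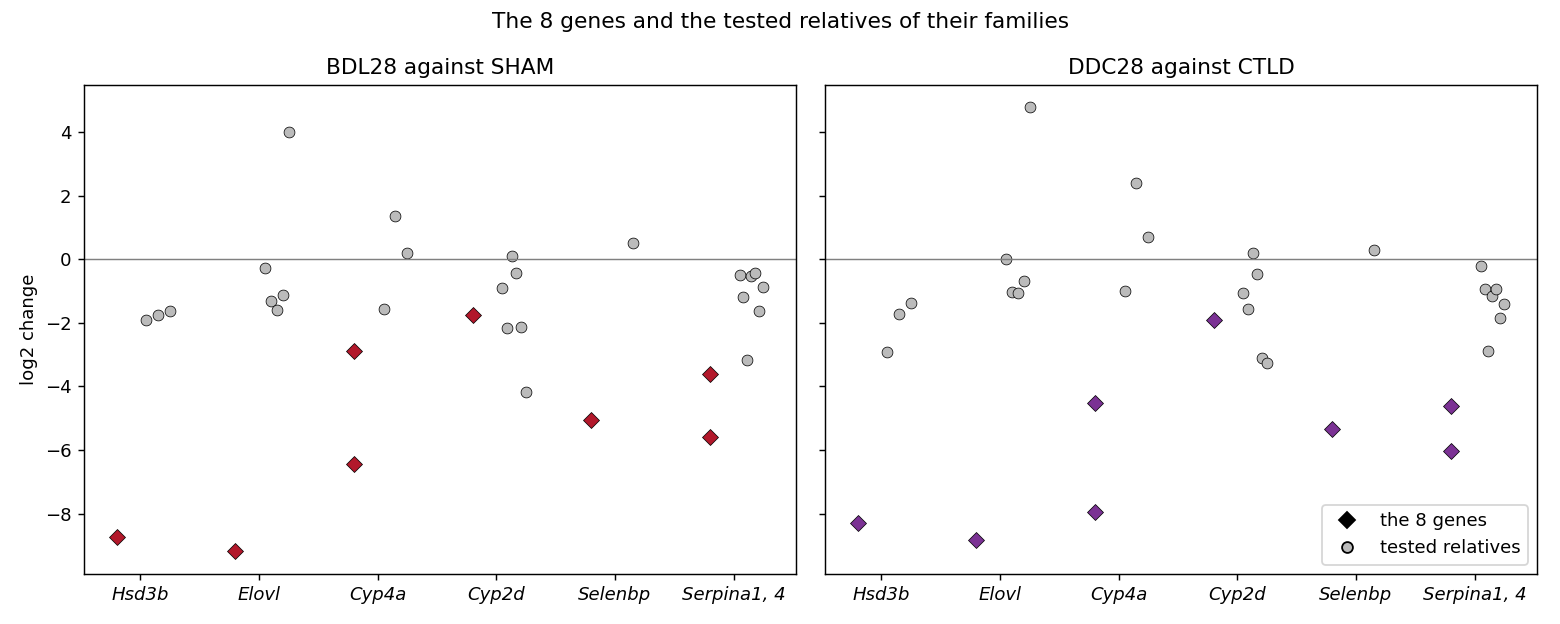
Log2 changes fitted by limma for the 8 genes (diamonds, left in each family) and their 25 tested relatives (grey circles) in BDL28 against SHAM and DDC28 against CTLD. Values of Hsd3b5 and Serpina4-ps1 depend on the added count of 1. Diamonds lie below every relative except for Cyp2d9, below which lie Cyp2d relatives in both panels.

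By pattern over the 9 group means of log2(normalized count + 1), each centred on its own mean, the nearest other genes to the mean of the 8 were Ugt2b38 with a root mean square difference of 0.37, Slc22a28 with 0.42, Keg1 with 0.46, Gm4956 with 0.48, Gm13773 with 0.49 and Mup-ps18 with 0.52. Among the 8, Serpina1e was nearest to their mean at 0.36 and Hsd3b5 farthest at 1.88. Keg1 averaged 51.2 normalized counts in BDL7, 11.3 in BDL28 and 450.4 in SHAM, and 55.3 in DDC7, 16.5 in DDC28 and 584 in CTLD. These 6 were picked for likeness, so the values are a description.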

How the data were processed

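Liver RNA of 36 mice was read with a 3' tag kit (QuantSeq 3' mRNA FWD) with molecular identifiers, per the labels' protocols. The submitters' processing notes list build GRCm39 and the tools DESeq2, RSEM 1.3.1, UMI-tools 1.1.1, STAR 2.7.9a and Trim Galore. What each did is not given in the sources used here. As signal values, the deposited table holds gene counts that the authors divided by a size factor per library. Dividing each column by its smallest value gave whole reads for 100% of values (tolerance 0.001). Symbols came from a gene name table for 29121 of 29546 identifiers.

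The members and gene lists were chosen with earlier results of these data known. The named genes were all 8 members, all family relatives, up to 4 genes of each list with the lowest adjusted p in a comparison, and the 6 genes nearest in pattern. A gene that this rule names in the female-biased list is not reported here, and the counts over that list include it. Values of a gene so named are also given in other comparisons, chosen after they were seen. Tests used limma 3.58.1 (trend, robust) on log2(normalized count + 1) over all 36 libraries with 1 coefficient per group, for 12596 genes with at least 10 in at least 4 libraries, 2-sided, with Benjamini-Hochberg adjustment and a threshold of 0.05. A fold change on this scale understates the change of low genes. edgeR 4.0.16 on the recovered reads was an alternative, next to other pseudocounts, no filter, other scalings, a fit on the groups compared alone, a replicate block and leaving out each library. Fits were tested on simulated data. The replicates are separate mice as far as the labels tell, 4 per group, and p-values measure the spread between these libraries. The depth of 2081093 to 3770267 reads per library (median 2826073) set the precision. Same-numbered libraries did not deviate together (0 of 4 pairs with a correlation above 0.1 in each comparison). Shared sequence was counted over 50-base windows in the last 500 transcript bases of GENCODE transcripts on GRCm38, and upstream regions were aligned with Biopython; sequences are from RefSeq on GRCm38.p6, so gene coordinates of GRCm39 are not given.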

Additional observations from a re-analysis of the deposited data

Results flagged for a closer look

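Of 72 sets of 4 libraries (8 genes in 9 groups), 5 had a library far from the other 3 by Dixon's criterion. For normally distributed values chance gives about 1 in 20, which does not hold for sets of 0 and single reads. Sets with 0 in all 4 libraries are among the 72 and could not be flagged. In BDL7 replicate 2, Hsd3b5 had 1.02 normalized counts, which is 1 read, against 0 in the other 3. Elovl3 was low in CsA28 replicate 2 at 885, with the nearest other at 1841. Cyp2d9 was high in DDC7 replicate 3 at 1871, with the nearest other at 1389. Serpina1e was low in CsA28 replicate 3 at 6816, with the nearest other at 11461. Serpina4-ps1 was high in CsA28 replicate 1 at 114, with the nearest other at 46.2.

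The level of Serpina4-ps1 in cyclosporin livers differed between the days, by a log2 difference of 3.40 (day 28 minus day 7, limma, adjusted p = 0.000795). It was higher in 4 of 4 CsA28 livers than in any CsA7 liver. Both days share the VEHICLE group, so a difference of day cannot be told apart from a change in the effect of cyclosporin.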

How the results depend on the processing

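The lower level of the 8 genes in ligated and DDC livers had the same direction in all 288 values recomputed under the alternatives, and 55 of these moved by more than 1 SD. Total-count scaling moved the median of all genes to 0.33 in BDL7, 0.29 in BDL28, 0.38 in DDC7, 0.39 in DDC28, 0.13 in CsA7 and 0.08 in CsA28 (log2). The calls in CsA7 were the fragile ones. The count of the 8 called there, 2, became 1 with a pseudocount of 0.5, no filter, total-count scaling, TMM, quantile normalization, the groups compared alone and the replicate block, and 0 to 2 with a library left out. Elovl3 was the call lost in each of those except in the fit on the groups compared alone, where Elovl3 and Serpina4-ps1 were lost and Serpina1e gained. In CsA28 against CsA7 the count, 1, became 2 with a pseudocount of 5, the groups compared alone and edgeR, and 1 to 2 with a library left out. In CsA7, the male-biased count of 2 became 1 with no filter, total-count scaling, quantile normalization, the groups compared alone and the replicate block, and 1 to 2 with a library left out. The female-biased count of 1 became 2 with total-count scaling, 0 with the groups compared alone and 2 with edgeR, and 0 to 2 with a library left out. The count of relatives, 1, became 2 with total-count scaling, the groups compared alone and edgeR, and 0 to 2 with a library left out. The pathway count of 0 became 1 with the replicate block and 2 with edgeR, and 0 to 2 with a library left out. Replicate numbers, taken from the sample descriptions and not the titles, are shared but no label pairs the mice, so the block is not a paired analysis. Why these counts moved was not tested beyond what each setting changes. Depth limits Serpina4-ps1, with 41 reads over SHAM and 106 over CTLD, and Hsd3b5 in ligated and DDC livers, with 0 to 4 reads a group.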

Other observations

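Between the cyclosporin days, 3 of the 16 tested female-biased genes were lower in CsA28 than in CsA7, where 1.07% of all genes were. Abcd2, a peroxisomal transporter gene, averaged 25.8 ± 17.3 normalized counts in CsA28, against 109.6 ± 75.0 in CsA7 (SD, n = 4 each, log2 difference -1.98, limma, adjusted p = 0.0214). Cyp2a4, a steroid hydroxylase gene, averaged 5.36 ± 2.21 in CsA28, against 37.7 ± 33.95 in CsA7 (SD, n = 4 each, log2 difference -2.09, limma, adjusted p = 0.0328). Trim24 averaged 31.4 ± 1.88 in CsA28, against 58.9 ± 14.8 in CsA7 (SD, n = 4 each, log2 difference -0.85, limma, adjusted p = 0.0300). Elovl2, a relative of Elovl3, averaged 1738 ± 239 in CsA7, against 1234 ± 239.7 in VEHICLE (SD, n = 4 each), and rose by 0.50 on the log2 scale (limma, adjusted p = 0.0145).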
